A study of Mus musculus with 24 samples.

Results

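Control mouse embryos were compared at the 4-cell and the 2-cell stage, the cleavage division at which the embryo leaves the 2-cell program. The libraries were chosen by their labels, as the RNA libraries of scramble-injected embryos at these stages: 4 of the 24 samples of the series and 4 of its 12 RNA libraries, 2 at each stage. All 56326 features in the count files were used, of which 55291 were genes and 1035 were families of repetitive elements. The study set out to learn what the endogenous retrovirus MERVL does in early embryos, and knocked it down with antisense oligonucleotides (ASOs), short nucleic acids that bind a matching transcript so that it is cut. Zygotes came from B6D2F1 parents, and in the controls a scrambled ASO at 20 µM had been placed in the male pronucleus. These zygotes were then grown in KSOM medium. Stage was judged under the microscope, and a library stands for the total RNA of 30 embryos without their zona pellucida. RNA was copied from random primers with a stranded kit, and ribosomal fragments were depleted. The labels give 1.5 days post coitum for the 2-cell and 2.5 for the 4-cell embryos, so stage and collection day cannot be told apart. The 8-cell embryos carry the same 2.5 in their label. The strain label of the embryos reads BDF2, and B6D2F1 is the name the methods give to the parent mice. All control embryos, at both stages, had been injected, and no uninjected embryos were among the RNA libraries used here. The oligonucleotide they received, of 20 bases and shown because every control embryo carried it, had this sequence, with no base in capitals.
scrambled ASO: agcgcgggtattgaaccagg

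Libraries of the 2-cell stage held 33532931 and 41320446 counts, and those of the 4-cell stage 34671067 and 28167085. Genes with at least 10 counts numbered 19447 and 19781 at the 2-cell and 19733 and 18348 at the 4-cell stage. Repeat families took 23.6% and 25.2% of the counts before and 21.4% and 19.8% after the division. The 2 biological replicates of a stage spread beyond counting noise, as chi-square divided by its degrees of freedom came to 9.403 (2-cell) and 10.8 (4-cell), values that are too high if both mates of a pair were counted. The share of ribosomal RNA repeats moved with stage, from 6.09% and 7.94% to 5.09% and 4.203%, and its part in the results was not tested. Levels are given as CPM, counts brought to a common library total, scaled by the trimmed mean of M values (TMM). No spike-in was added, so CPM are relative: less RNA per cell, fewer cells and a smaller share of the total cannot be told apart.

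Fertilised mouse eggs live at first on RNA and protein stored during oocyte growth. Transcription from the embryo's own genome starts weakly in the zygote and strongly in the late 2-cell embryo, when MERVL and a set of 2-cell genes such as the Zscan4 cluster are briefly active. Leaving that stage involves the silencing of this program, the clearance of maternal RNA, and the production of ribosomes and metabolic enzymes by the embryo itself.

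Between these stages most of the measured transcriptome changed. Of 20272 genes that passed a filter on low counts, 10845 were called (53.5%), meaning an adjusted p below 0.05 in edgeR's quasi-likelihood test and at least a 2-fold change. At the 4-cell stage 5066 genes were higher (25.0%) and 5779 lower (28.5%), and the median log2 fold change over all tested genes was -0.04. Without a fold threshold 13358 genes had an adjusted p below 0.05 (65.9%). These shares are the background for every gene list described here. Falls were more often large: 841 genes fell and 531 rose at least 16-fold, and 190 fell and 155 rose at least 64-fold. No count was seen at the 2-cell stage for 109 tested genes and at the 4-cell stage for 138, and these passed the filter by their counts at the other stage alone. The 100 genes with the highest mean CPM at the 2-cell stage and the 100 highest at the 4-cell stage had 31 genes in common.

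Leaving predicted gene names and pseudogenes aside, 8 genes are described for the falls with the smallest adjusted p. C86187 had 3461 and 3407 CPM in the 2-cell libraries and 51.4 and 45.1 in the 4-cell libraries, a log2 fold change of -6.15 ± 0.103 (SE) with an edgeR adjusted p of 7.23e-10. The 2-cell libraries were both high and both 4-cell libraries low, with a wide gap between them. Tcl1b1 and Tcl1b3, of a Tcl1 gene cluster active in oocytes and early embryos, fell from 431 and 442 CPM to 3.61 and 3.02 and from 243 and 229 to 2.23 and 1.82 (log2 -7.03 ± 0.13 and -6.85 ± 0.14). Wee2, the oocyte kinase that restrains CDK1 and holds meiotic arrest, went from 642 and 614 CPM to 15.8 and 14.1 (log2 -5.39 ± 0.11). Rbm38, an RNA-binding protein, Siah2, a ubiquitin ligase, Rfpl4, a RING finger protein of the oocyte, and AU022751 completed this set, with log2 fold changes of -5.46, -4.71, -5.23 and -5.97. In all 8 genes both 4-cell libraries lay below both 2-cell libraries, and Zbed3 shared the adjusted p of Tcl1b3 and Wee2.

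Counted by the CPM lost, Zbed3 led, whose protein belongs to the subcortical maternal complex of the egg. It held 5232 and 4292 CPM at the 2-cell stage and 73.8 and 78.8 at the 4-cell stage, a change of -5.96 ± 0.12 on the log2 scale (edgeR adjusted p = 8.47e-10). Ccdc6, a coiled-coil protein, went from 3966 and 4038 CPM to 875 and 849, and kept a higher level (-2.21 ± 0.07). Spin1, a reader of histone H3 methylation, fell from 2893 and 2781 to 277 and 281 CPM (-3.35 ± 0.08). Mdm4, which restrains p53, and Bmi1, a Polycomb subunit, fell by less than Zbed3 and Spin1 on the log2 scale (-2.17 ± 0.08 and -2.63 ± 0.08) and were still at 506 and 534 and at 339 and 338 CPM in 4-cell embryos.

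**Figure D1:**
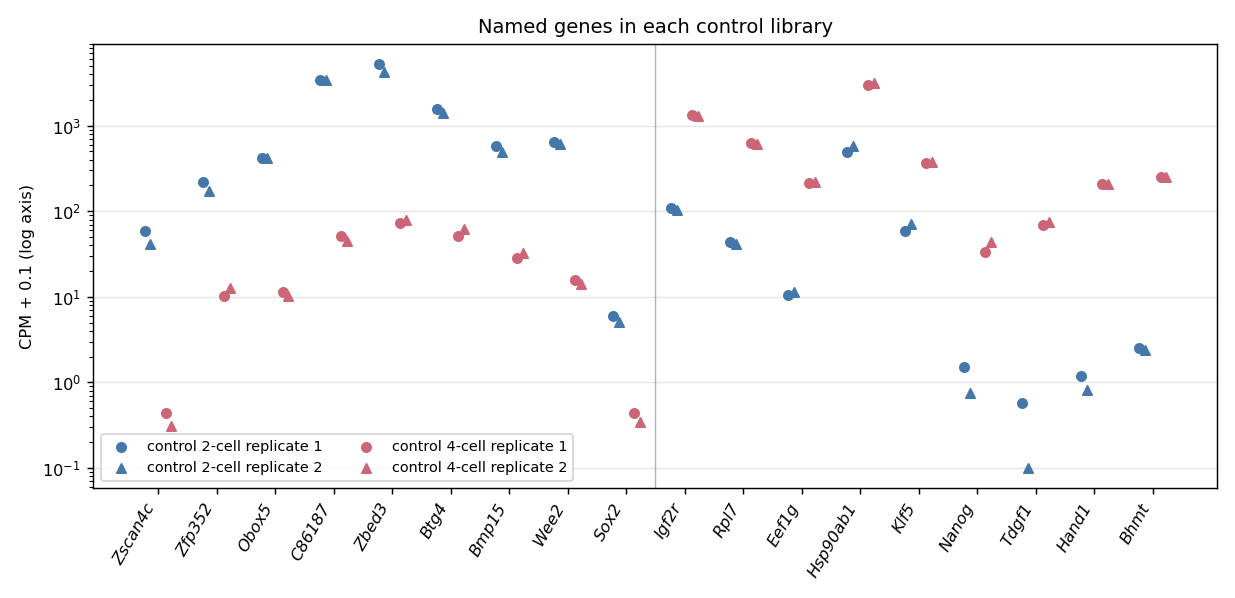
CPM plus 0.1 on a log axis for 18 named genes in each of the 4 control libraries, circles for replicate 1 and triangles for replicate 2, blue for the 2-cell and red for the 4-cell stage. The 9 genes on the left lie lower and the 9 on the right higher in both 4-cell libraries than in both 2-cell libraries.

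Genes that act in the growing oocyte fell as groups. Of 19 tested genes of the egg coat and of oocyte growth factors 15 were called lower, with a median of -2.12, and their summed level went from 2477 and 2457 CPM to 271 and 270.4. Oosp3 and Oosp1, secreted proteins of the oocyte, fell 64.6-fold and 41.1-fold, and the Omt2b transcript fell 19.3-fold. Bmp15 and Gdf9, the growth factors by which the oocyte acts on its follicle cells, went from 576 and 487 CPM to 28.6 and 32.6 and from 105 and 105 to 29.3 and 22.7 (log2 -4.12 ± 0.12 and -2.02 ± 0.13). Both factors were thus lower in each 4-cell library, with no overlap between stages. The members that were not called were Mos, the kinase of metaphase II arrest, Zp3, the sperm receptor of the egg coat, Gpr3, the receptor that maintains prophase arrest, and Plat, a plasminogen activator, with log2 fold changes of -0.96, -0.69, -0.896 and -0.73. These had adjusted p from edgeR of 0.0145, 3.14e-03, 7.33e-05 and 1.73e-04 and missed the 2-fold threshold. Mos passed it in 5 alternative settings, with values down to -1.13 without control 4-cell replicate 2. Gpr3 and Plat were named after their values had been seen.

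The subcortical maternal complex, a protein lattice under the egg's membrane that is needed for early cleavage, and the related Nlrp genes fell too. Among 17 tested members 15 were lower, the median was -2.28, and the sum went from 6664 and 5551 CPM to 352 and 381, and at the 2-cell stage most of it was Zbed3. Nlrp5, also called Mater, a core member, had 154 and 134 CPM at the 2-cell stage against 42.6 and 44.9 at the 4-cell stage (-1.72 ± 0.11). Nlrp4e and Nlrp9a fell further (-4.02 ± 0.28 and -3.67 ± 0.18), and Nlrp4e read -4.64 without control 4-cell replicate 1. Ooep, Tle6 and Padi6, the other parts of the lattice, changed by -3.04, -1.63 and -1.05, and Padi6 dropped below 2-fold when only library size was used for scaling (-0.96). Khdc3, or Filia, went the other way from very low levels, 1.43 and 0.9497 CPM, to 7.39 and 8.56 (2.74 ± 0.31, edgeR adjusted p = 2.37e-05). Nlrp4c was not called, at 15.7 and 14.7 against 18.4 and 32.6 CPM, a log2 difference of 0.74 that reached 1.06 and passed the test without control 4-cell replicate 1. Nlrp4c, Ooep, Tle6 and Padi6 were named after their values had been seen.

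Genes that store, shield or degrade maternal mRNA were themselves mostly reduced. Of 28 tested genes 16 fell, 11 were not called, and the median was -1.27, while the summed level went from 6306 and 6117 CPM to 2515 and 2553. Btg4, the adaptor that brings the CCR4-NOT deadenylase to maternal mRNA, fell from 1574 and 1424 CPM to 51.6 and 61.9 (-4.72 ± 0.12, edgeR adjusted p = 2.13e-09). Cnot6l, a catalytic deadenylase named after its values had been seen, fell from 607 and 552 to 51.96 and 65.4 CPM. Eif4e1b, an oocyte form of the cap-binding protein, and Ybx2, which packages stored mRNA, fell 21.00-fold and 11.3-fold. The exception was Cnot1, the scaffold of the same deadenylase complex, which rose from 294 and 324 to 849 and 869.9 CPM (1.47 ± 0.09). The oocyte adaptor and its complex's scaffold therefore moved in opposite directions, with no overlap between stages in either.

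The 2-cell marker genes matched the stage labels of the libraries. Of 35 listed markers 33 were in the files and were tested, 28 of them fell and 5 were not called, and the median log2 fold change was -3.97. Zscan4c, a zinc finger protein of a family active in 2-cell embryos, held 1972 and 1613 counts in the 2-cell and 12 and 6 in the 4-cell libraries, that is 58.9 and 41.4 against 0.338 and 0.206 CPM. Its log2 fold change was -7.48 ± 0.296 with an adjusted p of 1.55e-08 in edgeR. Both 2-cell libraries were thus high and both 4-cell libraries close to nothing. Zscan4b and Zscan4f fell too (-7.31 ± 0.35 and -6.03 ± 0.23), and so did Zscan4a, Zscan4d and Zscan4e (-5.64, -5.54 and -4.86), which were named after their values had been seen, with -6.52 for Zscan4d without control 4-cell replicate 1. These copies are nearly identical and reads were counted only where they aligned to 1 place, so the split between them is uncertain. Zfp352, a zinc finger gene derived from a retroposed copy, fell from 221 and 173 CPM to 10.2 and 12.7 (-4.11 ± 0.16). Duxf3, the homeobox activator of the 2-cell program, was low at both stages, 138 and 85 counts against 16 and 17, and fell 6.07-fold.

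Some 2-cell markers were not called. Sp110, a nuclear body protein and the most abundant marker of the list, stood at 989.7 and 1097 CPM at the 2-cell and at 1343 and 1425 at the 4-cell stage, a log2 difference of 0.41 ± 0.08 that did not reach 2-fold. With this gene included, the summed level of the list went only from 2846 and 2835 to 1679 and 1766 CPM. The other markers that were not called were Ubtfl1, an HMG-box factor (-0.36), and Tdpoz2, Tdpoz4 and Tdpoz5, of a family with TRAF and POZ domains (-0.52, 0.101 and -0.797), and Tdpoz4 turned to -0.04 without control 2-cell replicate 2. By contrast Tmem92, Rfpl4b and Usp17lc fell to a few CPM or less (-5.78, -5.87 and -5.06), Rfpl4b by -6.65 without control 4-cell replicate 1. These markers that were not called, with Tmem92, Rfpl4b and Usp17lc, were named after their values had been seen. The copies of the Tdpoz and Usp17l families are so alike that their counts are uncertain.

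Promoters are shown for Zscan4c, Zscan4f and Zfp352 as examples of 2-cell markers that fell, and the cause of the fall was not tested. The sequences are from RefSeq, build GRCm38.p6, run from 250 bases before to 50 after the gene's start and are written 5′ to 3′ on the gene's strand. Capitals mark the letters TATAAA, a core promoter element, in the Zscan4 genes and, in Zfp352, the letters GGATTA, the core of paired-type homeodomain sites, read on the other strand. The Zscan4c window lies at chr7:11005495-11005794 (+ strand) with TATAAA 54 bases before the start, the Zscan4f window at chr7:11397665-11397964 (+ strand) with TATAAA 31 bases before it. The Zfp352 window lies at chr4:90218570-90218869 (+ strand) and holds GGATTA 9 times, from 227 to 61 bases before the start. Searched on both strands, TATAAA occurred in 14.2% and GGATTA in 7.16% of the promoters of 27025 gene symbols in the table. A match is a description of the letters and not a binding site.
Zscan4c: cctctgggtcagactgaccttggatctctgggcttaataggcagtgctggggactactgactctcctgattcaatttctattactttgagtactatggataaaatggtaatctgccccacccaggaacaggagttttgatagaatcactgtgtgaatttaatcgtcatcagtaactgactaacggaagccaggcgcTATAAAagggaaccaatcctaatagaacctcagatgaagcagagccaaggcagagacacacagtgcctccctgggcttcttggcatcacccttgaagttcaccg
Zscan4f: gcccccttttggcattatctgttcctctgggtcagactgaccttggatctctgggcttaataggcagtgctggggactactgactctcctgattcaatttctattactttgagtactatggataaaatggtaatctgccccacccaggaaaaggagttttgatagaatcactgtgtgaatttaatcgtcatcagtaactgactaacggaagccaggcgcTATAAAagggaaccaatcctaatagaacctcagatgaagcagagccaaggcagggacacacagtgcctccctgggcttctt
Zfp352: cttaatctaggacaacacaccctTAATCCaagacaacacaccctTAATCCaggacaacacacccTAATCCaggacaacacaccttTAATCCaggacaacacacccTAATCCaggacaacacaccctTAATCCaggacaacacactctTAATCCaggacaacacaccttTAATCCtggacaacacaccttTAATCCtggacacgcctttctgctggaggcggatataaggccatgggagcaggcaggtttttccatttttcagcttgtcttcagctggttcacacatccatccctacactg

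The Obox homeobox genes, which act around genome activation, divided. Of 7 tested members 5 fell and 2 rose. Obox5, of the oocyte-expressed group, went from 416 and 419.9 CPM to 11.2 and 10.1 (-5.29 ± 0.11, edgeR adjusted p = 8.49e-10). Obox3 and Obox1 fell 53.9-fold and 14.4-fold, and Obox7 and Obox2, named after their values had been seen, fell 11.2-fold and 5.87-fold. Obox6 rose from 123 and 117 to 439 and 479.8 CPM (1.94 ± 0.09). Obox8 read 54.3 and 74.5 against 208 and 335 CPM (2.08 ± 0.24), and its call was lost without control 2-cell replicate 1 (1.82) or replicate 2 (2.27). The summed level of the family hardly moved, from 799 and 819.9 to 671 and 838 CPM, while its composition shifted. Obox copies are alike in sequence, so their separate counts are uncertain.

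Among repeat families MERVL-int and MTA_Mm-int, abundant at the 2-cell stage, fell. Of 758 tested families 141 were called (18.6%), 110 of them higher (14.5%) and 31 lower (4.09%), with a median log2 fold change of 0.45, and 383 (50.5%) had an adjusted p below 0.05 without a fold threshold. MERVL-int, the internal part of MERVL, held 2123018 and 2716733 counts at the 2-cell stage and 716175 and 501167 at the 4-cell stage. In CPM that was 63451 and 69734 against 20191 and 17223, a fall of 3.56-fold (log2 -1.83 ± 0.08, adjusted p = 3.67e-08 in edgeR). Both 4-cell libraries lay far below the 2-cell libraries, yet MERVL-int still took 1.87% of scaled counts on average, against 6.66% before. Its promoter repeat MT2_Mm fell from 4526 and 4969 to 1450.1 and 1284 CPM (-1.796 ± 0.09). The related MERVL_2A-int, named after its values had been seen, fell 3.03-fold.

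In the mouse transcript (MT) group of MaLR families, whose long terminal repeats drive many oocyte transcripts, MTA_Mm-int, MTA_Mm and MT-int fell more steeply, and the other MT families of at least 100 CPM were not called. Of all 70 tested MaLR families 6 were higher and 6 lower. MTA_Mm-int had 25444 and 24334 CPM in 2-cell and 2999 and 3152 in 4-cell libraries (-3.02 ± 0.07, edgeR adjusted p = 1.59e-09). MTA_Mm and MT-int fell 7.56-fold and 5.93-fold, and the major satellite of pericentromeric chromatin, GSAT_MM, went from 113 and 133 to 22.4 and 22.4 CPM. Summed over their classes, ERVL went from 75526 to 22973 CPM and ERVL-MaLR from 53395 to 18256 (means of 2 libraries). Most of the ERVL sum was MERVL-int, and of 42 tested ERVL families 6 were higher and 5 lower, with a median of 0.54. RLTR6-int, a leukemia-virus-like family, fell 2.39-fold. The MTA, MT-int and RLTR6-int families were named after their values had been seen.

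Some short interspersed elements and ERVK families rose. Of 271 tested ERVK families 41 were higher and 8 lower, near the shares of all families. B1_Mm stood at 1136 and 1213 CPM in the 2-cell and at 6453 and 5975 in the 4-cell libraries (2.403 ± 0.08), and B2_Mm2 at 3633 and 3839 against 10271 and 9609 (1.41 ± 0.07). Their class sums moved from 9271 to 31655 CPM for the B1 class and from 17197 to 46338 for B2, and many of these short copies lie inside introns and transcript ends of genes, so whole-element and gene-borne RNA cannot be told apart. B1_Mus1 and B2_Mm1a rose 3.76-fold and 3.14-fold. Among ERVK families RLTR45-int rose from 197 and 235 to 2688 and 2574 CPM (3.61 ± 0.103), and MMETn-int, of the early transposon group, rose 5.01-fold. IAPEz-int, the intracisternal A particle, was higher without reaching 2-fold, 892 and 775 against 1467 and 1299 CPM (0.73 ± 0.095, edgeR adjusted p = 7.17e-05). B1_Mus1, B2_Mm1a, RLTR45-int and MMETn-int were named after their values had been seen. The class of LINE L1 elements summed to 11435 and 10805 CPM before and to 14870 and 13401 after. LSU-rRNA_Hsa, a family named after its values had been seen and nearly all of the ribosomal repeats, stood at 60128 and 83273 against 48820.3 and 40048 CPM and was not called (-0.69 ± 0.16).

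**Figure D2:**
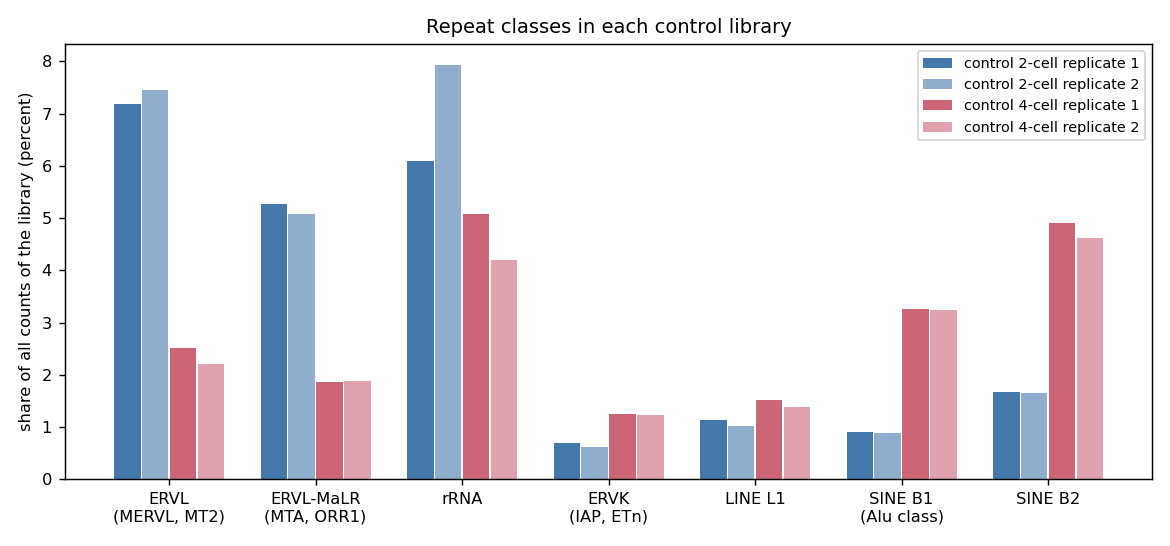
Share of all counts of each control library (percent, from 0) taken by 7 repeat classes, blue bars for the 2-cell and red bars for the 4-cell stage, darker for replicate 1. ERVL, ERVL-MaLR and rRNA bars are lower and the ERVK, L1, B1 and B2 bars higher in both 4-cell libraries.

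By fold alone, the families with the largest changes held few counts. X1_DNA, MLT1C2-int, MER31-int and MER91B had no count at the 2-cell stage and 18 and 26, 15 and 22, 14 and 19, and 14 and 17 at the 4-cell stage. Against a floor of 3 counts per library these were at least 8.41-fold, 7.07-fold, 6.29-fold and 5.87-fold higher. CR1_Mam rose from 4 and 2 counts to 67 and 110 (log2 5.02, 5.64 without control 2-cell replicate 1 and 4.41 without control 4-cell replicate 2). In the other direction UCON23 had 15 and 14 counts and then none, at least 4.303-fold lower, and lost its call without control 2-cell replicate 2 and was not tested without replicate 1. MER34C went from 20 and 15 counts to 0 and 2, a ratio of 15.6 with a 95% counting interval from 4.01 to 134, and its call was lost in 6 alternative settings, among them those without control 2-cell replicate 1 (-3.48), replicate 2 (-4.11) and control 4-cell replicate 1 (-2.803). L2d2 fell from 38 and 39 counts to 3 and 2. Such intervals and floors cover counting error only, since the reads carry no molecular identifiers. In the 4 libraries 71.8% to 73.0% of the counts from 1 to 50 were even, so both mates of a pair may have been counted, in which case the intervals are too narrow, and the folds set against the floor too high. Repeat families pool near-identical copies counted from reads with 1 alignment, so young families are undercounted by an unknown amount.

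Among genes with established names, 8 are described for the rises with the smallest adjusted p. Bhmt, the enzyme that remethylates homocysteine with betaine, went from 81 and 88 counts to 8951 and 7359, or from 2.42 and 2.26 to 252 and 253 CPM. Its log2 fold change of 6.75 ± 0.12 had an edgeR adjusted p of 8.10e-10. Both 4-cell libraries were over 100 times as high as the 2-cell libraries and nearly equal to each other. Hand1, a transcription factor of the trophoblast lineage, was likewise almost silent at the 2-cell stage, 1.08 and 0.719 CPM, and stood at 209.5 and 206 at the 4-cell stage (7.87 ± 0.16). Igf2r, the imprinted receptor that clears insulin-like growth factor 2, rose from 108 and 104 to 1323 and 1309 CPM (3.63 ± 0.09). Rack1, a scaffold on the small ribosomal subunit, Eef1g, a subunit of elongation factor 1, the ribosomal proteins Rpl7 and Rpl3, and Phldb3 completed the set, with log2 fold changes of 4.12, 4.302, 3.88, 3.85 and 4.99. In each of these 8 genes both 4-cell libraries lay above both 2-cell libraries. A smaller adjusted p than any of them, 7.23e-10 in edgeR, belonged to CT010467.2, annotated as an unprocessed pseudogene on chromosome 17 and named after its values had been seen. It went from 29.1 and 30.4 to 2316 and 2499.5 CPM (6.34 ± 0.099).

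The window around the start of Bhmt (chr13:93637709-93638008, - strand, RefSeq GRCm38.p6) is shown because its rise had the smallest adjusted p among genes with established names. Capitals mark TCAAGGNCA, the letters of sites for the NR5A nuclear receptors, 75 bases before the start on the gene's strand. The same letters, searched on both strands, were in 1.61% of all promoters of the table.
Bhmt: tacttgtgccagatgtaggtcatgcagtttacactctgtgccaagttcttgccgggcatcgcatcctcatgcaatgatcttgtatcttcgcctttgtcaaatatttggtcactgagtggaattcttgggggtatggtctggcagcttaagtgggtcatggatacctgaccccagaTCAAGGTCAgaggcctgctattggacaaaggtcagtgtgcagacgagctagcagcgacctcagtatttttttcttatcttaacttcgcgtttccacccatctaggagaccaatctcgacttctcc

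By CPM gained, Hsp90ab1, the constitutive HSP90, led among genes with established names and rose from 491 and 577 to 3014 and 3146 CPM (2.53 ± 0.09, edgeR adjusted p = 1.11e-08). Hspa8, the constitutive HSP70, rose from 245 and 222 to 1881 and 1738. Ncl, or nucleolin, went from 666 and 712 to 2353 and 2259 CPM. These abundant genes rose without overlap between the stages, by 5.77-fold, 7.74-fold and 3.35-fold. Larp4, which binds poly(A) tails, Impdh2, the rate-limiting enzyme of guanine nucleotide synthesis, and Eif3a, the largest subunit of initiation factor 3, rose 3.27-fold, 11.2-fold and 3.78-fold.

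The cytosolic ribosomal proteins rose nearly as a block. Of 79 tested genes 76 were called higher against the 25.0% of all tested genes, with a median log2 fold change of 2.48. Their summed level was 4379.8 and 4983 CPM at the 2-cell and 25355 and 24566 at the 4-cell stage. Rpl7, a large-subunit protein, stood at 43.3 and 40.8 against 634 and 607 CPM (3.88 ± 0.09, edgeR adjusted p = 1.98e-09), and Rpl14 at 27.5 and 31.2 against 352 and 337. Among the members not called were Rplp0, a stalk protein, which was 1.96-fold higher, and Rpl24 (-0.105), both named after their values had been seen. Rpl24 held only 20, 23, 15 and 20 counts, its difference turned to 0.17 without control 4-cell replicate 1, and Rplp0 passed the threshold without control 2-cell replicate 2 (1.03) or with library size alone (1.06). Ribosomal protein genes have many processed pseudogenes, so reads with more than 1 alignment were lost from them and their levels are uncertain.

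Many genes that build and use ribosomes rose as well. In ribosome biogenesis 26 of 44 genes were higher, 18 were not called, and the median was 1.22, while the sum rose from a mean of 5193 to 13922 CPM. Heatr1, an early factor of the small subunit, rose from 66.5 and 81.8 to 499.6 and 551 CPM, the nucleolar helicase Ddx21 from 142 and 175 to 910.4 and 872, and Wdr12, of the large-subunit pathway, 4.79-fold. Npm1, or nucleophosmin, named after its values had been seen, rose 3.94-fold. In initiation and elongation 28 of 35 genes were higher and the median was 1.50. Eef1g led with 10.3 and 11.4 CPM before and 211 and 218 after (4.302 ± 0.11), and the initiation factor 3 subunits Eif3d and Eif3l rose 11.9-fold and 8.51-fold.

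Promoters are shown for Rps18, a small-subunit protein that was named after its values had been seen and rose from a mean of 23.7 to 233 CPM, and Eif3d, as members of 2 groups that rose together. Capitals mark CCGGAAGT, the letters of ETS factor sites. The Rps18 window (chr17:33955616-33955915, - strand, RefSeq GRCm38.p6) has them at 157 and 75 bases before the start, and the Eif3d window (chr15:77970775-77971074, - strand) at 71 bases before it, on the other strand. On either strand the letters were in 4.0% of the promoters of the table. The table held a promoter for 63.0% of the tested genes, under the 80% needed to compare sets of genes, so such a comparison was void. Of 206 named genes 158 had an entry.
Rps18: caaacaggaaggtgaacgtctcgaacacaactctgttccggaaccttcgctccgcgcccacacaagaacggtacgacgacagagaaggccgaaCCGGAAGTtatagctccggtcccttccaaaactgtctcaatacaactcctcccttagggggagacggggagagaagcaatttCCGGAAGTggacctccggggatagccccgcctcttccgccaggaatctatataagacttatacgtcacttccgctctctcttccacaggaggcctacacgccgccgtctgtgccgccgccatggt
Eif3d: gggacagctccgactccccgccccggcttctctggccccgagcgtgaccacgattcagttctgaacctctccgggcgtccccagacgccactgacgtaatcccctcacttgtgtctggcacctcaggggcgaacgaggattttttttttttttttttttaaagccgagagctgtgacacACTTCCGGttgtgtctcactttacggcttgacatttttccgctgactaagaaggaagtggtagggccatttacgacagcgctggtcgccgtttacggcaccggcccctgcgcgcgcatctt

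**Figure D3:**
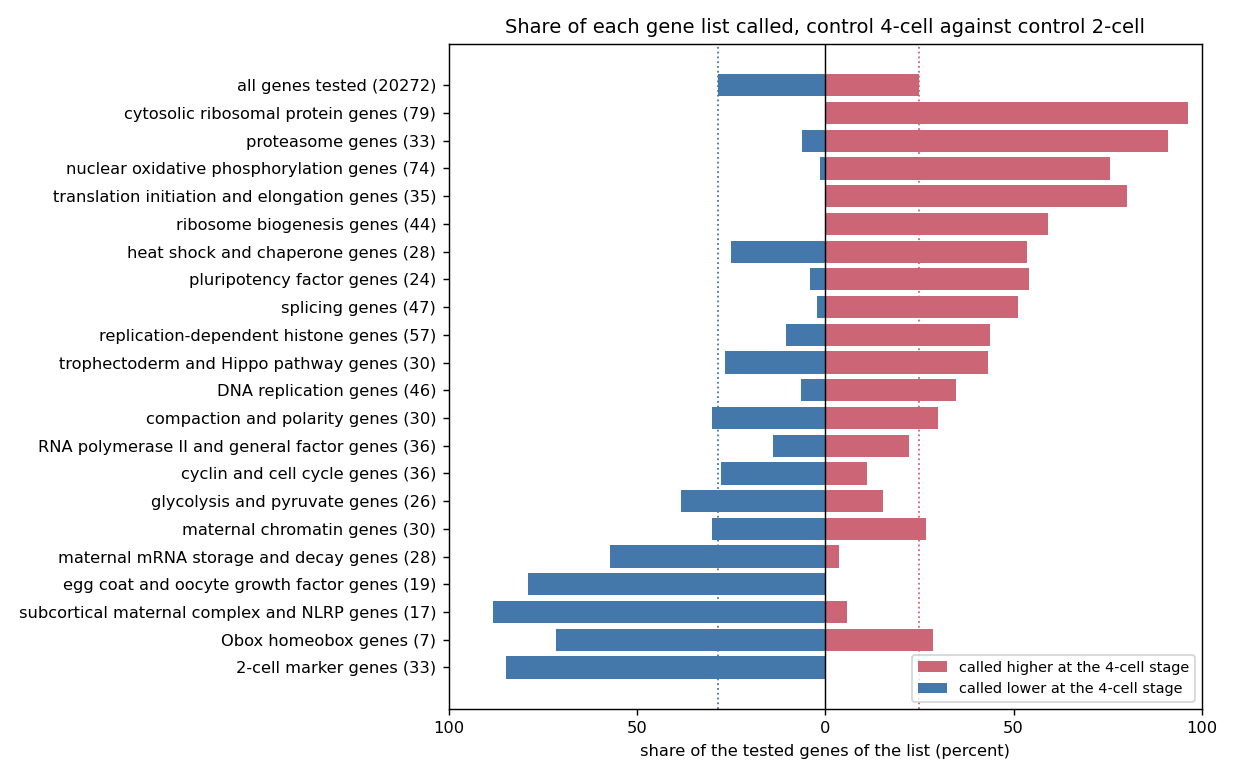
Percent of the tested genes of each list called higher (red, to the right) or lower (blue, to the left) at the 4-cell stage, with the number tested in parentheses and dotted lines at the shares of all tested genes, 25.0% higher and 28.5% lower. Ribosomal protein, proteasome, translation and oxidative phosphorylation genes stand far to the right, the lists of 2-cell markers, the egg coat, the subcortical maternal complex and maternal mRNA storage to the left, and maternal chromatin near the dotted lines.

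Most proteasome genes and many splicing genes rose. Of 33 proteasome genes 30 were higher, with a median of 1.65. The core particle subunits Psma7, Psma6 and Psma5 rose 8.93-fold, 8.86-fold and 8.53-fold, Psma6 from 15.96 and 19.1 to 153 and 158 CPM. The activators Psme4 and Psme3, which replace the regulatory cap, fell instead, Psme4 from 1025 and 1089 CPM to 247 and 239 (-2.12 ± 0.08) and Psme3 3.001-fold, and Psmd3, named after its values had been seen, was not called (0.595). The core of the proteasome and its alternative activators thus went in opposite directions in both replicates. Among 47 splicing genes 24 were higher and 22 not called, with a median of 1.00. Eftud2, a GTPase of the U5 particle, rose 11.7-fold from 10.8 and 7.701 to 109 and 107 CPM, and Sf3a2 and Snrpb rose 7.896-fold and 5.34-fold. Srsf10, a splicing repressor, fell 2.398-fold.

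Of 28 tested chaperone genes 15 rose and 7 fell, beside 25.0% and 28.5% of all tested genes, with a median of 1.16, and the sum went from a mean of 3328 to 11133 CPM. Cct4, of the cytosolic chaperonin, rose from 24.3 and 28.03 to 232 and 232 CPM (3.15 ± 0.11). The stress-inducible Hspa1a and Hspa1b, among the earliest genes active in mouse embryos, fell from 6.52 and 5.83 to 1.13 and 1.41 and from 20.9 and 15.2 to 7.87 and 7.08 CPM (-2.28 ± 0.31 and -1.27 ± 0.205). They are close copies of each other, so their separate values are uncertain. Hsf1, the maternal activator of the heat shock genes, fell 5.78-fold, Hspa4l 4.99-fold and Hspa2, a testis and germ cell HSP70, 9.28-fold (log2 -3.21, or -3.92 without control 4-cell replicate 2).

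Energy metabolism changed unevenly. Among 74 nuclear genes of oxidative phosphorylation 56 were higher and 17 not called, with a median of 1.64 and a sum that went from 944 and 987 to 2496 and 2460.5 CPM. Ndufa12, Ndufb4 and Ndufa3, small subunits of complex I, rose from under 1 CPM in both 2-cell libraries to 15.9 and 11.99, 10.1 and 13.9, and 8.57 and 7.22 CPM (4.32, 4.22 and 3.75). Cox7b, of complex IV, fell 2.64-fold. The transcripts of the mitochondrial genome were all listed at 0, also those of genes every cell uses, so nothing can be said of them.

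Of 26 glycolysis and pyruvate genes 10 fell (38.5%) and 4 rose (15.4%), beside 28.5% and 25.0% of all tested genes, with a median of -0.26. Ldhb, the heart-type lactate dehydrogenase that is abundant in eggs, went from 152 and 142 CPM to 20.5 and 20.3 (-2.85 ± 0.105, edgeR adjusted p = 1.06e-08). Tpi1, triose phosphate isomerase, and Slc2a1, the glucose transporter GLUT1, fell from under 10 CPM by 9.02-fold and 7.27-fold. The log2 value of Tpi1 was -2.68 without control 4-cell replicate 1 and -3.95 without replicate 2, and that of Slc2a1 -3.99 and -2.32, so their folds are uncertain. Hk1, hexokinase, rose from 6.16 and 4.52 to 96.7 and 98.8 CPM, 18.4-fold. Pdha1, of pyruvate dehydrogenase, and Mpc2, of the mitochondrial pyruvate carrier, rose 7.34-fold and 2.44-fold. Hk1, Pdha1 and Mpc2 were thus higher in both 4-cell libraries, and beside them only Aldoa was called higher in this list. Aldoa, aldolase, named after its values had been seen, rose 2.13-fold, a call lost without control 2-cell replicate 2 (0.95) or control 4-cell replicate 2 (0.83) and with a filter of at least 1 count (1.00).

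The cell cycle list had no common direction. Of 36 tested genes 10 fell and 4 rose, and its median of 0.06 turned negative in 5 settings, among them those without control 2-cell replicate 1 (-0.04) and replicate 2 (-0.003). Rb1, the retinoblastoma repressor of S phase entry, fell from 227 and 218 CPM to 18.5 and 22.4 (-3.44 ± 0.12), and Cdkn1b, the inhibitor p27, from 8.67 and 8.83 to 1.75 and 1.24. Cdk4, a kinase of G1 phase, rose from 6.46 and 5.96 to 44.04 and 48.4 CPM and Cdc25a, the phosphatase that activates S phase kinases, from 25.3 and 27.5 to 158 and 178. Genes of the G1 to S passage thus appeared on both sides. Cdkn1a, the inhibitor p21, rose 4.19-fold. Cdc20, an activator of the anaphase-promoting complex named after its values had been seen, was 2.09-fold higher, and its call was lost without control 2-cell replicate 1 (0.95), without control 4-cell replicate 1 (0.96) and in 3 other settings.

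Genes of DNA replication were higher in 16 and lower in 3 of 46, with a median of 0.54. Pold1, the catalytic subunit of DNA polymerase delta, rose from 1.704 and 0.821 to 17.2 and 21.4 CPM (3.95 ± 0.31), Rfc4 of the clamp loader 7.85-fold and Gins1 of the replicative helicase 5.83-fold. Its partner Gins2 fell from 6.43 and 8.37 to 1.64 and 0.722 CPM (log2 -2.63, or -3.39 without control 4-cell replicate 1), and Dbf4, the activator of the CDC7 kinase, and Orc6, of the origin complex, fell 2.53-fold and 2.14-fold. These subunits of the same helicase complex, Gins1 and Gins2, were therefore on opposite sides.

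In RNA polymerase II and its general factors 8 of 36 genes rose and 5 fell, both below the shares of all tested genes. Ccnh, the cyclin of the TFIIH kinase, rose 9.38-fold and the polymerase subunits Polr2k and Polr2h 4.45-fold and 3.596-fold. Gtf2a1, the large subunit of TFIIA, fell from 834 and 849 CPM to 198 and 218 (-2.02 ± 0.09), its partner Gtf2a2 2.35-fold, Gtf2b 3.18-fold and Polr2c 3.55-fold. Tbpl2, the TBP relative used in oocytes, went from 5.02 and 3.88 to 0.113 and 0.481 CPM (log2 -3.94, -3.23 without control 4-cell replicate 1 and -5.29 without replicate 2). The oocyte form of TBP and both subunits of its partner TFIIA were thus lower in each 4-cell library than before. Tbpl2 and Gtf2a2 were named after their values had been seen.

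Replication-dependent histone genes rose in 25 and fell in 6 of 57 tested, with a median of 0.87, yet their sum went from 2408 and 2248 to 2129 and 2157 CPM. The linker histones H1f4 and H1f2 rose 21.4-fold and 10.9-fold, H1f4 from 6.097 and 5.801 to 135 and 119.7 CPM, and H4c12 rose 10.9-fold. H1f1, the most abundant, fell from 932 and 821 to 251 and 199 CPM, and the core histone genes H3c7 and H2bc1, the latter a testis and oocyte variant, fell 4.22-fold and 3.29-fold. H1f8, the oocyte linker histone listed among chromatin genes, fell from 46.03 and 50.3 to 10.1 and 11.1 CPM (-2.18 ± 0.14). H1f4 and H1f2 were therefore higher, and H1f1 and the oocyte form lower, in both 4-cell libraries than in both 2-cell libraries.

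Among 30 tested maternal chromatin genes 9 fell, 8 rose and 13 were not called, near the shares of all tested genes. The TET enzymes, which oxidise 5-methylcytosine, exchanged places. Tet3, the form stored in the egg, went from 471 and 459 CPM to 77.5 and 84.6 (-2.52 ± 0.09), while Tet1 rose from 103 and 109 to 335 and 333 (1.65 ± 0.09) and Tet2 2.97-fold. Ehmt2, or G9a, the H3K9 methyltransferase, rose from 9.21 and 8.11 to 121 and 108 CPM. Zfp57, the zinc finger protein that guards imprints, and Npm2, the histone chaperone of the egg nucleus, fell 5.26-fold and 3.38-fold. Dppa3, or Stella, which protects maternal methylation, stood at 706 and 744 against 1181 and 1074 CPM and was not called (0.64, named after its values had been seen).

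Of 24 tested pluripotency genes 13 rose and 10 were not called, with a median of 1.08, and the sum went from 1653 and 1770.3 to 3641 and 3775 CPM. Nanog, the homeobox factor of the epiblast lineage, had 47 and 25 counts at the 2-cell and 1182 and 1270 at the 4-cell stage, or 1.405 and 0.642 against 33.3 and 43.6 CPM (5.25 ± 0.301, edgeR adjusted p = 1.57e-07, with 5.85 without control 2-cell replicate 1 and 4.72 without replicate 2). Tdgf1, or Cripto, a Nodal co-receptor, went from 16 and 0 counts to 2434 and 2194 (log2 8.31, or 7.17 without control 2-cell replicate 2). Without control 2-cell replicate 1 no 2-cell count of Tdgf1 was left, so that fold has no exact value. Sall1 rose from 1.08 and 1.64 to 49.8 and 49.3 CPM. Nanog, Tdgf1 and Sall1 were thus very low at the 2-cell stage and clearly present in both 4-cell libraries. Nr5a2, the nuclear receptor active around genome activation, rose from 125 and 137 to 475 and 510.4 CPM (1.92 ± 0.09). Klf2, Klf5, Esrrb and Dppa2, named after their values had been seen, rose 20.5-fold, 5.71-fold, 3.89-fold and 3.997-fold.

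Other pluripotency genes did not follow. Pou5f1, or Oct4, stood at 75.7 and 73.4 against 125 and 115 CPM, a 1.61-fold difference that was beyond the replicates (edgeR adjusted p = 1.22e-04) but under 2-fold. Klf17 was close to level at 384 and 398 against 367 and 468 CPM (0.095 ± 0.11), and -0.12 without control 4-cell replicate 2. Sox2 fell, from 194 counts in each 2-cell library to 12 and 7 (-4.19 ± 0.398, edgeR adjusted p = 6.65e-06). The Sox2 transcript was thus low to begin with and almost gone in both 4-cell libraries.

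Trophectoderm and Hippo pathway genes, which set the outer lineage of the later embryo, rose in 13 and fell in 8 of 30. Tead4, the factor that opens the trophectoderm program, rose from 10.01 and 13.04 to 222 and 196 CPM (4.18 ± 0.14, edgeR adjusted p = 8.08e-09). Its coactivator Yap1 fell from 1034 and 1079 to 247 and 246 (-2.098 ± 0.08). A transcription factor and its coactivator thus moved in opposite directions, each without overlap. Among the kinases that restrain Yap1, Stk3 fell 4.48-fold and Lats2 rose 11.2-fold. Amotl2, which holds Yap1 in the cytoplasm, read 13 and 36 counts against 2842 and 828 (6.33 ± 0.797), and its call was lost without control 2-cell replicate 1 (5.83) or replicate 2 (7.06) and with a filter of at least 1 count (6.25), and it read 5.36 without control 4-cell replicate 1. Tfap2c rose 2.54-fold and the water channel Aqp3 10.3-fold. Gata2 fell from 4.78 and 6.88 to 0.451 and 0.206 CPM (log2 -4.103, or -4.83 without control 4-cell replicate 1) and the endocytic adaptor Dab2 5.85-fold. Cdx2, the defining factor of trophectoderm, was barely detected, with 12, 14, 39 and 2 counts in the 4 libraries, and its difference turned to -2.36 without control 4-cell replicate 1. Yap1, Lats2 and Aqp3 were named after their values had been seen.

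Genes of compaction and polarity rose in 9 and fell in 9 of 30, near the shares of all tested genes. Cldn4 and Cldn7, claudins of tight junctions, went from 1.11 and 0.667 to 48.4 and 39.4 CPM and from 1.26 and 1.797 to 34.5 and 38.6 (5.64 ± 0.24 and 4.57 ± 0.21). Itgb1, the beta 1 integrin, rose 6.71-fold. Pard3, Pard6b and Prkci, which form the PAR complex, fell 8.24-fold, 5.68-fold and 3.302-fold, Pard3 from 341 and 348 to 45.2 and 38.5 CPM. All 3 subunits were lower in both 4-cell libraries than in both 2-cell libraries.

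Markers of other cells that could travel with embryos were listed as well. Of 14 cumulus and granulosa markers 5 were tested and 2 fell, Tnfaip6 (-4.08) and Has2 (-2.87), matrix genes of the expanding cumulus, from at most 45 counts, and Tnfaip6 read -8.21 without control 4-cell replicate 1 and -3.25 without replicate 2. The list summed to 20.3, 23.4, 23.8 and 27.1 CPM in the 4 libraries, its most abundant gene was Amhr2 (14.3 and 17.8 against 20.7 and 22.3 CPM), and the defining Fshr and Inha held at most 4 counts in any library, with Ptx3 at 0. Cyp19a1 (-1.93), Amhr2 (0.42) and Star (0.24) were not called, Cyp19a1 passed the test without control 4-cell replicate 2 (-3.86) and in 3 other settings, and Star turned to -0.09 without that library. The call of Has2 was lost without control 2-cell replicate 1 (-2.58) or replicate 2 (-3.22), without control 4-cell replicate 2 (-2.001) and in 2 other settings, and its value was -7.75 without control 4-cell replicate 1. Of 8 sperm and testis markers Prm2 was tested, with 26, 26, 6 and 0 counts and a call that was lost in 4 settings. Among them were those without control 2-cell replicate 1 (-2.91), replicate 2 (-3.14) and control 4-cell replicate 2 (-2.10). Without control 4-cell replicate 1 no 4-cell count of Prm2 was left, so that fold has no exact value. That list summed to 1.06 CPM on average before and 0.375 after the division, and Prm3 and Smcp were at 0. Oviduct markers, of which Epcam also belongs to the embryo's own epithelium, summed to 60.9, 70.0, 44.2 and 47.3 CPM, nearly all of it Epcam, and the defining Foxj1 held at most 6 counts. Krt7 (1.01, from 0.11 without control 2-cell replicate 2 to 3.06 without replicate 1), Epcam (-0.56) and Ovgp1 (0.32, or -0.06 without control 2-cell replicate 1) were not called. Blood markers summed to 2.18 and 1.55 CPM on average, mostly Hba-a1, with Hbb-bt at 0. Their tested members were Hba-a1 (-0.62, or 0.08 without control 4-cell replicate 1 and called at -2.09 without replicate 2), Hba-a2 (-1.68, called at -4.104 without control 4-cell replicate 2) and Alas2 (0.12, or -0.65 without control 4-cell replicate 1). Apart from Inha, the genes of these lists were named after their values had been seen, and the part of such cells in the results was not tested.

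The 8-cell control libraries, scaled together with all 12 RNA libraries, placed these changes on a longer course, without a test of the step from 4 to 8 cells. Some genes that had fallen stayed low, as C86187 averaged 3673, 48.7 and 34.6 CPM with 2, 4 and 8 cells, and Btg4 1603, 57.2 and 34.8. Zfp352 went on down, from 211 over 11.6 to 1.74 CPM, and so did MERVL-int, from 71237 over 18866 to 12117. Several genes that had risen by the 4-cell stage were higher again with 8 cells. Bhmt averaged 2.502, 255 and 433 CPM, Hspa8 250.2, 1825 and 3258, and Rpl7 45.00, 626 and 904. Nanog was about level after its rise, 38.8 and then 43.3 CPM, and the larger step of Pou5f1 came later, from 79.8 and 121 to 233. B2_Mm2 was highest in between, at 3996, 10025 and 7151 CPM.

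**Figure D4:**
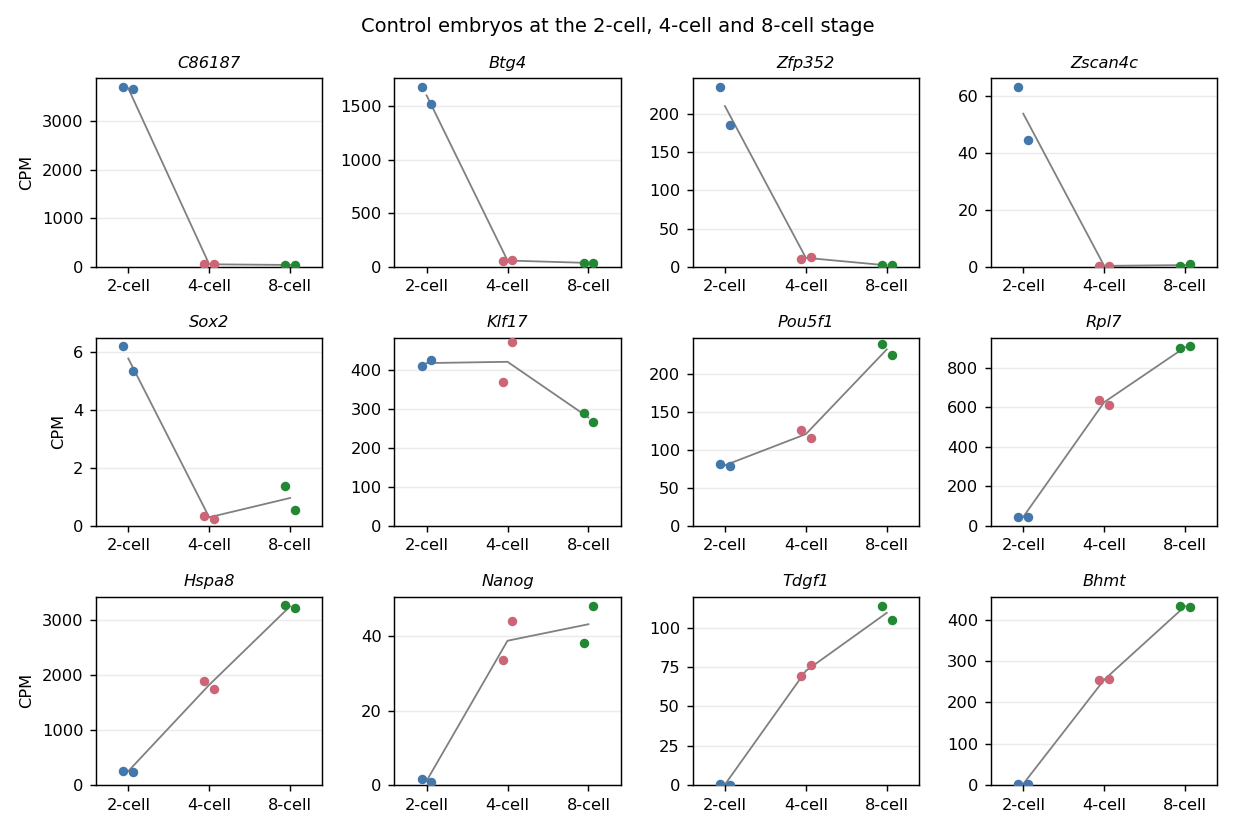
CPM, scaled over all 12 RNA libraries, of 12 genes in the 2 control libraries of the 2-cell (blue), 4-cell (red) and 8-cell (green) stage, with a grey line through the means. C86187, Btg4, Zfp352, Zscan4c and Sox2 are highest at the 2-cell stage, while Rpl7, Hspa8, Tdgf1 and Bhmt climb through both steps.

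The same division was measured in MERVL-KD embryos, which carried ASOs against MERVL and share no library with the controls. That test made 10683 calls among 21519 genes (49.6%), of which 5008 were rises (23.3%) and 5675 falls (26.4%). Of the genes that rose in control embryos 3855 rose there as well, 76.1% of the control list and 77.0% of the MERVL-KD list, and of those that fell 4483 fell there, 77.6% and 79.0%. Of 762 repeat families tested in MERVL-KD embryos 49 were higher (6.43%) and 43 lower (5.64%). For repeat families the shared rises were 35, 31.8% of the control list and 71.4% of the other, and the shared falls 20, 64.5% and 46.5%.

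The difference between both transitions was tested directly, as an interaction in a fit of 8 libraries. Of 23300 genes 656 differed (2.82%), 250 with a larger value in control embryos (1.07%) and 406 with a smaller one (1.74%), and 14 of 796 repeat families (1.76%). Without a fold threshold 1121 genes (4.81%) were below 0.05. This split depends on scaling, since library size alone gave 644 and 187 and moved the median of all genes from -0.08 to 0.25, and leaving out features above 1% of the counts gave 337 and 257. The count was 367 without MERVL-KD 2-cell replicate 1 and 395 without control 2-cell replicate 2. Most genes called in the control transition were therefore called in both kinds of embryo, and a small set of genes differed. Repeat families shared fewer calls, as 69 of the 110 that rose in controls were not called in MERVL-KD embryos. A missed call is not in itself a difference. By the direct test 1.76% of repeat families differed, beside 2.82% of genes.

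Prpf18, a splicing factor, averaged 68.5 and 85.6 CPM at the 2 stages in control and 46.1 and 10.6 in MERVL-KD embryos, log2 fold changes of 0.41 and -2.08 (difference 2.41, edgeR adjusted p = 8.74e-06). Sin3a, a corepressor scaffold, Cox10, of heme A synthesis, and Cdr2 fell in both but less in controls, with differences of 1.99, 2.18 and 1.46, and Csnk2a1, the catalytic subunit of casein kinase 2, fell in MERVL-KD embryos (-2.02) and was not called in controls (-0.34). In the opposite direction Epm2a, the glycogen phosphatase laforin, stood at 90.8 and 78.9 CPM in control and 4.77 and 23.7 in MERVL-KD embryos (difference -2.55, edgeR adjusted p = 8.74e-06). Endod1, Gtse1, a mitotic protein, Rab7, a GTPase of late endosomes, and Esco2, the cohesin acetyltransferase, followed with -2.75, -1.98, -1.74 and -1.55. Hspa2 fell in controls and hardly moved in MERVL-KD embryos, -3.21 against -0.18 (difference -3.12, edgeR adjusted p = 2.30e-03), and Zscan4b fell further in controls (-7.31 against -3.54). Its near copy Zscan4c had a like difference that was not called (-4.01, edgeR adjusted p = 0.122), and Zscan4f a smaller one (-0.67, edgeR adjusted p = 0.407). The value for a single copy is therefore uncertain. Bhmt and Tead4 rose further in controls, 6.75 against 5.39 and 4.18 against 3.03. For Tead4 this call was lost without control 2-cell replicate 1 or control 4-cell replicate 1. The differences of Cdkn1b and Sox2 had edgeR adjusted p of 0.0458 and 0.0433 and were lost in most settings with 1 library left out.

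**Figure D5:**
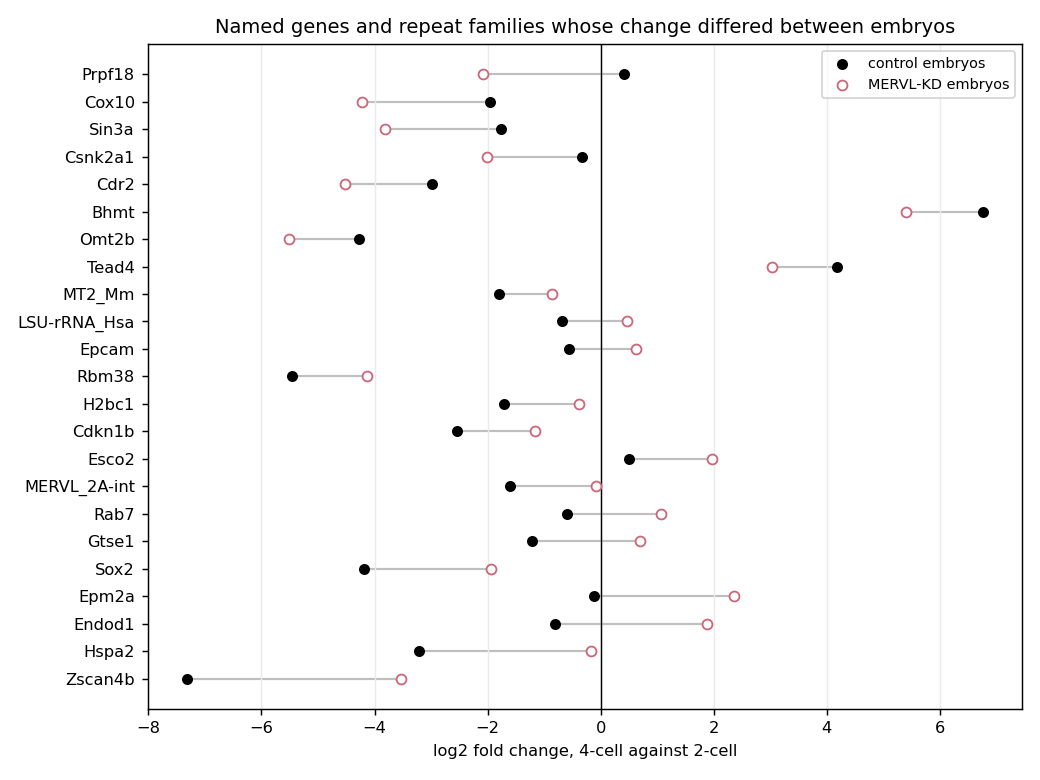
Log2 fold change from the 2-cell to the 4-cell stage of the 23 named genes and repeat families whose change differed between control (filled circles) and MERVL-KD embryos (open circles), joined by grey lines. Prpf18 and Cox10 lie farther right in control embryos, and Zscan4b and Hspa2 farther left.

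MERVL-int illustrates how a like fold can hide unlike levels. It averaged 71237 and 18866 CPM in control and 1276 and 406 in MERVL-KD embryos, and its log2 changes of -1.83 and -1.61 did not differ by the test (edgeR adjusted p = 0.624). The knockdown libraries were far lower at both stages and did not overlap the control libraries. MT2_Mm and MERVL_2A-int did differ, with -1.796 against -0.86 and -1.599 against -0.08, although the difference for MT2_Mm (-1.01) lies close to 2-fold and lost its call in 13 alternative settings. It read -0.76 without MERVL-KD 2-cell replicate 1, -0.96 without replicate 2, -0.84 without MERVL-KD 4-cell replicate 1, -0.92 without control 2-cell replicate 2 and -0.93 without control 4-cell replicate 2.

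With 2 libraries a stage, the tests rest on the spread of pairs, and small changes may have been missed. Whether strand was used in counting is not stated in the sources used here, so reads of a gene and of an overlapping or antisense partner cannot be told apart.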

How the data were processed

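Gene and repeat family counts are those the authors deposited, used unchanged. By the methods of the paper and the submitters' notes, reads had been trimmed, aligned to GRCm38 with STAR 2.5.3a keeping only reads with 1 alignment, and counted with featureCounts. Strand and mate settings of the counting are not stated in the sources used here. Libraries were grouped by their labels. Tests ran in R 4.3.3 with edgeR 4.0.16: filterByExpr, TMM scaling, a robust quasi-likelihood fit and Benjamini-Hochberg adjustment over genes and repeat families together, with a call at adjusted p below 0.05 and at least 2-fold. The SE given with a log2 fold change is its size divided by the square root of the F statistic of edgeR's test. It is not the spread of the replicates. Tables and figures used Python 3.11.15. Replicates were compared by a chi-square per degree of freedom. Alternatives were DESeq2 1.42.0, other scalings, filters and fits, and each library left out. Named genes followed a rule on adjusted p, CPM difference and list membership, and 67 more were chosen after their values were seen. Members and lists were chosen with earlier results of these data known. Biotypes were matched by gene name to a GENCODE release older than the vM25 used for the counts, and 1999 genes found no match. Positions are those deposited with the counts, and promoters are from a RefSeq table. On simulated counts with 200 of 21030 features changed 4-fold, the control test called 200 of these and 18 unchanged features. The changed features went up and down in equal number and were taken only from features with many counts. The test of the difference between transitions called 186 of 200 changed and 15 unchanged features. Smaller folds, changes at low counts and a transcriptome in which most genes change were not simulated, so these figures do not cover them.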

Additional observations from a re-analysis of the deposited data

Results flagged for a closer look

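These genes and repeat families were singled out by 1 criterion, an edgeR test in which the change from the 2-cell to the 4-cell stage differed between control and MERVL-KD embryos by at least 2-fold. It was met by 656 genes and 14 repeat families, and only those named in the report are given here, which is a second selection. Values are the log2 change in control minus that in MERVL-KD embryos. They were positive for Prpf18 (2.41), Cox10 (2.18), Sin3a (1.99), Csnk2a1 (1.60), Cdr2 (1.46), Bhmt (1.28), Omt2b (1.16) and Tead4 (1.07). They were negative for Zscan4b (-3.85), Hspa2 (-3.12), Endod1 (-2.75), Epm2a (-2.55), Sox2 (-2.33), Gtse1 (-1.98), Rab7 (-1.74), Esco2 (-1.55), Cdkn1b (-1.45), H2bc1 (-1.41), Rbm38 (-1.40) and Epcam (-1.27). Among the named repeat families MERVL_2A-int (-1.59), LSU-rRNA_Hsa (-1.23) and MT2_Mm (-1.01) were negative, while families that are not given had values of both signs. Calls were lost in many alternative settings for Cdkn1b, Sox2, LSU-rRNA_Hsa and MT2_Mm and in few for H2bc1, Tead4 and Epcam, so the first 4 are uncertain. The value of Zscan4b is uncertain too, because the split of reads between near copies is uncertain. Zscan4c had a like value that was not called (-4.01), and Zscan4f a smaller one (-0.67). Each group had 2 libraries, and the cause of these differences was not tested.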

How the results depend on the processing

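Of 3227 alternative values for 218 named genes and repeat families in the control transition, 3153 were the same in direction and call. Of the others 36 were stronger, 30 weaker, with a lost call, and 8 reversed. A value could move in size and still count as the same. Of 355 alternative medians of 24 lists 284 were the same, 65 moved and 6 reversed, and of 64 alternative counts of calls 60 were the same and 4 moved. The number of genes called, control 4-cell against control 2-cell, ranged from 9448 to 10946 with 1 library left out, was 10037 with DESeq2, and was 8204 with at least 10 counts in every library, where fewer genes were tested. With replicates blocked it was 10358, and deviations of like-numbered replicates were hardly correlated across the stages (r = 0.0141). Repeat families called ranged from 99 to 148 with 1 library left out, and 383 were below 0.05 with no fold threshold, a looser criterion by construction.

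For the difference between the transitions, 1121 genes were below 0.05 with no fold threshold, and 367 to 756 were called with 1 library left out. Of 434 alternative values for the 23 named differences 386 were the same and 48 weaker, with a lost call, and the weaker ones belonged to Cdkn1b, Sox2, LSU-rRNA_Hsa, MT2_Mm, H2bc1, Tead4 and Epcam. With library size alone 77.5% of its calls were higher in control embryos, against 38.1% with TMM, so the direction of that split depends on scaling.

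Values that reversed in direction when 1 library was left out are given as lowest and highest: Cdx2 -2.36 and 1.58 (lowest without control 4-cell replicate 1), Klf17 -0.12 and 0.225 (lowest without control 4-cell replicate 2), Tdpoz4 -0.0414 and 0.145 (lowest without control 2-cell replicate 2), Rpl24 -0.515 and 0.17 (highest without control 4-cell replicate 1), Star -0.0904 and 0.453 (lowest without control 4-cell replicate 2), Ovgp1 -0.0639 and 0.735 (lowest without control 2-cell replicate 1), Hba-a1 -2.09 and 0.0812 (highest without control 4-cell replicate 1) and Alas2 -0.65 and 0.557 (lowest without control 4-cell replicate 1). The median log2 fold change of cyclin and cell cycle genes was -0.0269 in the fit of 12 libraries, -0.0319 with at least 1 count, -0.021 with at least 10 counts, and from -0.0386 to 0.0344 with 1 library left out. The median log2 fold change of oviduct epithelium markers ran from -0.0639 to 0.451. The cause was not tested. Few counts limit the rare repeat families and the markers of other cells.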

Other observations

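Shares here stand beside 28.5% lower and 25.0% higher among all tested genes. By annotated type, 439 of 951 tested lincRNA genes were lower (46.2%) and 139 higher (14.6%) at the 4-cell stage (median -1.47). Processed pseudogenes were higher in 546 (35.1%) and lower in 274 (17.6%) of 1557 (median 0.93). Of 109 snoRNA genes 59 were higher (54.1%) and 4 lower (3.67%), with a median of 1.75. Of 728 genes of the X chromosome 260 were lower (35.7%) and 156 higher (21.4%), with a median of -0.36. Some autosomes leaned the same way, as chromosome 15 had 31.0% lower and 21.8% higher (median -0.28).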
